A study of Drosophila melanogaster with 16 samples.

Results

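The 33 genes described here make the machinery that builds ribosomes: subunits of RNA polymerases I and III, core proteins of small nucleolar RNA particles (snoRNPs) and nucleolar assembly factors. They were taken by symbol from the annotation of the arrays, as every gene whose single symbol was on a list of names (17 genes) or, failing that, started with Polr1, Polr3 or Nop (16 genes), and they are 33 of the 11982 genes measured. They fall into 7 polymerase I genes, 8 polymerase III genes, 7 snoRNP proteins and 11 assembly factors. One listed name, nop5, was not the single symbol of any probe set and is not analysed here. The brightest probe set over all 16 arrays stood for its gene, which mattered only for Nop60B, since the other 32 genes had 1 probe set each.

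The study measured total RNA from dissected midguts of female Drosophila melanogaster on 16 Affymetrix GeneChip arrays, 4 per group. The groups were wild type (labelled WT), RafGOF (an overexpressed Raf kinase with gain of function), RafGOF NotchDN (the same Raf form plus a dominant-negative form of the receptor Notch) and RafGOF NotchIC (the same Raf form plus the intracellular domain of Notch, its active form). Raf and Notch themselves were not the single symbol of any probe set, so the level of the transgenes is not analysed here. The sources used here give no age, no driver of the transgenes and no cells that carry them. Whether each array is its own animal, pool or cross is not in the labels either, so p-values measure only the spread between these arrays. The RMA values are on a log2 scale, so a difference of 1 is a 2-fold difference. A member was called at an adjusted p under 0.05 (limma over all 18769 probe sets, two-sided, Benjamini-Hochberg).

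In the nucleolus, RNA polymerase I transcribes the ribosomal RNA precursor. Box C/D snoRNPs then methylate it and box H/ACA snoRNPs convert chosen uridines to pseudouridine, while assembly factors, GTPases and helicases fold and cut it and add ribosomal proteins. RNA polymerase III makes a separate small ribosomal RNA and the transfer RNAs outside the nucleolus. In the fly gut, stem cells and growing cells need this machinery, and TOR and Myc signalling are known to act on it.

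Pairs of arrays of a group correlated at 0.979 to 0.995 across probe sets, and array medians lay between 5.48 and 5.70. The arrays numbered 2 had the lowest signal of the 18S rRNA control at its 3′ end in every group. It read 7.32 to 8.97 on them and 8.91 to 12.82 on the other 12 arrays. The controls at the 5′ end and in the middle of the 18S rRNA were lowest on the array numbered 1 in every Raf group. Of the 33 members, 14 were higher on the array numbered 2 than on the mean of the other 3 arrays in all 4 groups. Another 3 were lower in all 4, and the share of all genes with either pattern was not counted. The median over the 33 members on an array was 7.79 to 8.20 in wild type, 8.34 to 8.72 in RafGOF, 8.58 to 8.99 in RafGOF NotchDN and 7.96 to 8.18 in RafGOF NotchIC. The same numbers recur in every group, but the shift of the members was not equal. Their median deviation from the group mean on the array numbered 2 was 0.15 in wild type, 0.16 in RafGOF and 0.13 in RafGOF NotchDN. It was -5.2e-05 in RafGOF NotchIC. The counts of members called are given with and without the arrays numbered 2.

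Defining markers were read beside the members. Enterocyte genes (7 measured of 9 listed, such as betaTry and Jon25Bii) had a summed linear signal of 92205 to 109115 in wild type and 41778 to 65495 in RafGOF. The sum was 58156 to 75404 in RafGOF NotchDN and 53320 to 65484 in RafGOF NotchIC. Against wild type 5 of the 7 were called lower in RafGOF and 4 in each Notch group. The enterocyte genes mex1 and alphaTry were not called in any comparison. Progenitor genes (4 of 5: esg, Sox21a, zfh2 and Sox100B) summed to 479 to 717 in wild type, 1608 to 3987 in RafGOF, 2406 to 5989 in RafGOF NotchDN and 966 to 1608 in RafGOF NotchIC. Of these 4 genes, 3 were called higher in RafGOF, 4 in RafGOF NotchDN and 2 in RafGOF NotchIC, each against wild type. With NotchDN 2 were called higher than with NotchIC. Against RafGOF, zfh2 alone was called higher with NotchDN and esg alone lower with NotchIC (limma, adjusted p = 0.0474). The progenitor sum lay above wild type in all Raf groups and was lowest of these with NotchIC. Its highest NotchIC array and its lowest RafGOF array both read 1608. Its part in the members' changes was not tested, and in whole midguts more cells of a type and more RNA per cell cannot be told apart. Ovary and germline genes, markers of a tissue that a dissection can carry along, summed to 516 to 566, 509 to 592, 468 to 543 and 432 to 524 in the same order of groups. None of these 10 genes (of 12 listed) was called by limma in any of the 6 comparisons (0 to 2 at an unadjusted p under 0.05), and vas, osk, bam, otu and swa stayed between 3.27 and 4.45 on every array. The other 5 were brighter, with exu at 6.61 to 8.0, Vm26Aa at 6.22 to 6.83, Vm34Ca at 6.06 to 6.48, Cp38 at 5.87 to 6.57 and Cp36 at 5.45 to 6.44. Of the muscle genes, 2 of 3 fell in RafGOF and in RafGOF NotchIC and 3 of 3 in RafGOF NotchDN, each against wild type. For enteroendocrine genes 2 of 3 fell in each of these comparisons, and for Malpighian tubule genes 1 of 2. Of the 4 hemocyte genes 1 was called lower in RafGOF and 0 in the Notch groups, and of the 6 fat body genes 0 were called by limma in any of the 3 (0 at an unadjusted p under 0.05).

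The first comparison, RafGOF with wild type, addresses the effect of active Raf alone. Of the 33 members, 18 rose and 1 fell, against 14.9% of all genes called higher and 10.1% called lower. The rises were led by Surf6 (3.05-fold), Nph (2.81-fold) and Fib (2.57-fold), and the fall was that of Nop17l. The median change was 0.42 (log2) over the members and -0.0032 over all genes. By role, 6 of 7 snoRNP proteins, 4 of 7 polymerase I genes, 5 of 11 assembly factors and 3 of 8 polymerase III genes rose, with medians of 0.99, 0.65, 0.41 and 0.28. All 33 genes have a mean signal at or above the median of the probe sets, and among the 7517 such genes 22.4% were called higher. Among them 13.9% were called lower. With the replicate number as a block 24 members rose and 1 fell, against 22.5% and 15% of all genes, and without the arrays numbered 2 the counts were again 18 and 1, against 14.9% and 9.13%. The groups did not overlap for 18 members higher and 1 lower in RafGOF (15.6% and 10.7% of all genes). All 4 same-numbered differences were positive for 29 members and negative for 1, which all genes showed in 28% and 22.2%.

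RafGOF NotchDN and RafGOF NotchIC were then compared with each other to ask what blocked against active Notch changed with Raf active in both. Here 19 members were higher with NotchDN and 0 lower, against 6.09% and 5.47% of all genes. By role these were 6 of 7 snoRNP proteins, 5 of 7 polymerase I genes, 6 of 11 assembly factors and 2 of 8 polymerase III genes, with medians of 1.09, 0.69, 0.56 and 0.24. The median was 0.54 over the 33 members and 0.01 over all genes. The 4 arrays of NotchDN all lay above the 4 of NotchIC for 22 members and below for 0, against 8.01% and 7.32% of all genes. Of genes at or above the median signal 8.5% were called higher and 8.01% lower. All 4 same-numbered differences were positive for 25 members and negative for 1, against 16.5% and 21% of all genes. With the replicate block 24 members were higher and 0 lower (10.6% and 13.8% of all genes), and without the arrays numbered 2 the counts were 20 and 0 (5.16% and 4.95%).

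**Figure D1:**
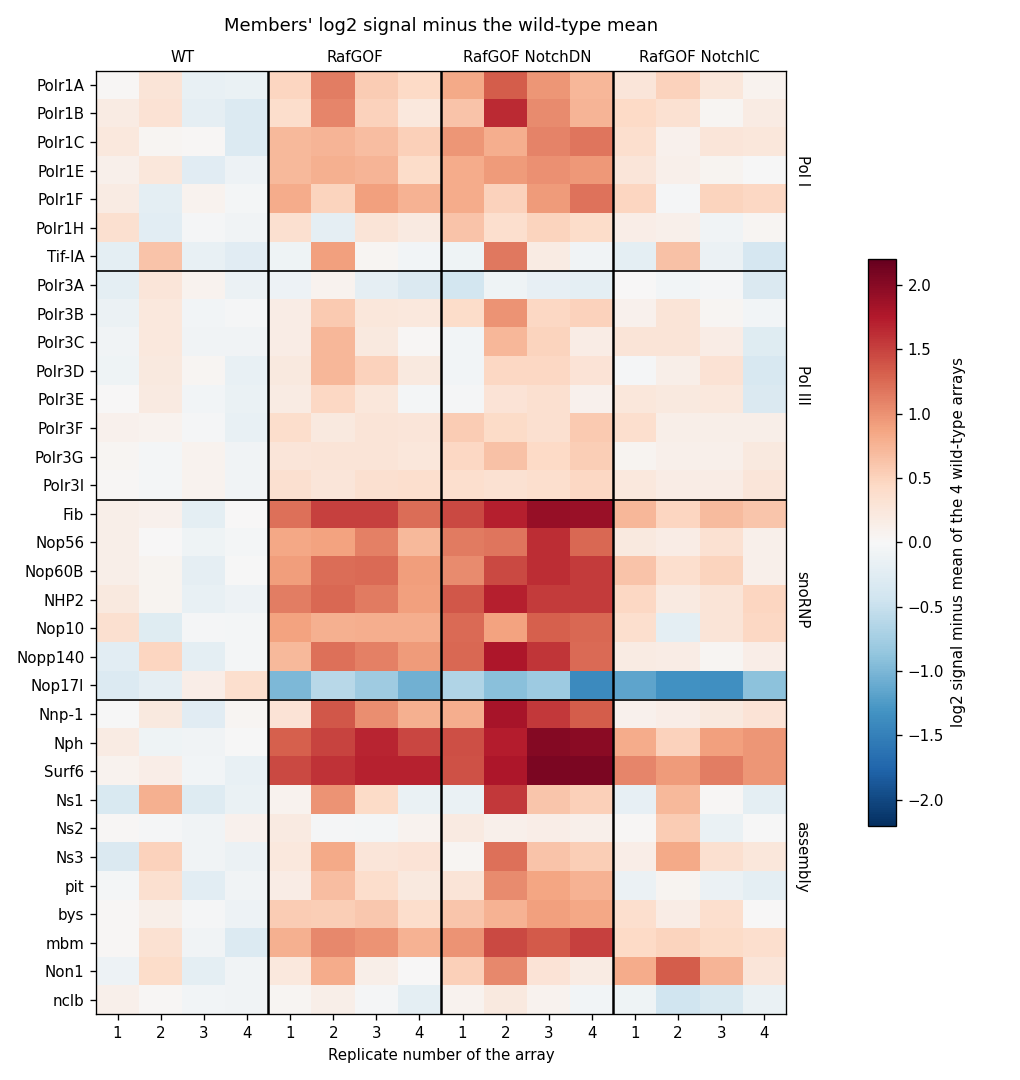
Each of the 33 members (rows, by role) on each of the 16 arrays (columns, by group and replicate number), as the log2 signal minus the mean of the 4 wild-type arrays (red higher, blue lower). The snoRNP proteins other than Nop17l, with Nph, Surf6 and mbm, are the reddest rows in RafGOF and RafGOF NotchDN and are paler in RafGOF NotchIC.

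Box C/D snoRNPs are represented by Fib, the methyltransferase fibrillarin, and Nop56, a core scaffold protein. Values of a gene within a group are given in the order of the replicate numbers. Fib read 8.97, 8.95, 8.63 and 8.85 in wild type, 10.07, 10.35, 10.36 and 10.08 in RafGOF, 10.30, 10.56, 10.76 and 10.75 in RafGOF NotchDN and 9.58, 9.32, 9.54 and 9.46 in RafGOF NotchIC. All Raf arrays lay above the wild-type arrays, and the NotchIC arrays fell between wild type and RafGOF without touching either. Fib rose in RafGOF by 1.36 ± 0.118 (log2, SE, adjusted p = 2.01e-06) and was 1.12 higher with NotchDN than with NotchIC (adjusted p = 1.99e-05). Nop56 read 9.86, 9.73, 9.63 and 9.68 in wild type, 10.58, 10.60, 10.83 and 10.44 in RafGOF, 10.87, 10.90, 11.34 and 10.99 in RafGOF NotchDN and 9.94, 9.89, 10.06 and 9.84 in RafGOF NotchIC. Its NotchDN arrays all lay above its RafGOF arrays, and its NotchIC arrays touched the wild-type range, with 9.84 on the lowest NotchIC array and 9.86 on the highest wild-type array. It rose by 0.89 ± 0.111 in RafGOF (adjusted p = 4.18e-05) and differed by 1.09 between the Notch constructs (adjusted p = 1.26e-05).

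The box H/ACA particle is represented by the pseudouridine synthase Nop60B, known as dyskerin in mammals, and by the core proteins NHP2 and Nop10. Nop60B read 9.47, 9.40, 9.15 and 9.34 in wild type, 10.26, 10.56, 10.58 and 10.25 in RafGOF, 10.37, 10.79, 10.97 and 10.87 in RafGOF NotchDN and 9.96, 9.70, 9.83 and 9.44 in RafGOF NotchIC. RafGOF started at 10.25 and wild type ended at 9.47, with the NotchIC arrays below RafGOF and touching the wild-type range. Its change was 1.08 ± 0.141 in RafGOF (adjusted p = 6.36e-05) and 1.02 between the constructs (adjusted p = 0.000263). A dimmer probe set of Nop60B, with a mean of 8.02, rose by 1.32 in RafGOF and was 1.41 higher with NotchDN than with NotchIC. The 2 probe sets differed in sign where neither passed, at 0.33 on the brighter and -0.20 on the dimmer one for RafGOF NotchDN against RafGOF, and at 0.40 and -0.29 for RafGOF NotchIC against wild type. NHP2 read 9.87, 9.72, 9.50 and 9.55 in wild type, 10.79, 10.92, 10.80 and 10.56 in RafGOF, 11.03, 11.36, 11.20 and 11.20 in RafGOF NotchDN and 10.12, 9.86, 9.95 and 10.13 in RafGOF NotchIC. The 4 groups ran from wild type through NotchIC and RafGOF to NotchDN, and only the lowest pair overlapped. NHP2 rose by 1.11 ± 0.109 in RafGOF (adjusted p = 5.74e-06) and was 1.18 higher with NotchDN than with NotchIC (adjusted p = 5.36e-06). Nop10 read 10.59, 9.98, 10.21 and 10.20 in wild type, 11.13, 11.02, 11.04 and 11.04 in RafGOF, 11.49, 11.13, 11.57 and 11.52 in RafGOF NotchDN and 10.62, 10.04, 10.52 and 10.71 in RafGOF NotchIC. Its NotchIC and wild-type arrays overlapped, and both lay below all RafGOF arrays. It changed by 0.81 ± 0.15 in RafGOF (adjusted p = 0.00103) and by 0.96 between the constructs (adjusted p = 0.000728).

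Nopp140 is a nucleolar phosphoprotein that binds both kinds of snoRNP. It read 8.96, 9.66, 8.98 and 9.15 in wild type, 9.89, 10.40, 10.29 and 10.13 in RafGOF, 10.45, 10.96, 10.75 and 10.44 in RafGOF NotchDN and 9.38, 9.36, 9.24 and 9.33 in RafGOF NotchIC. The NotchIC arrays all lay within the wild-type range, and the NotchDN arrays all lay above the RafGOF ones. Nopp140 rose by 0.99 ± 0.159 in RafGOF (adjusted p = 0.000334), and its difference of 1.32 ± 0.159 between the Notch constructs, 2.51-fold, was the largest of any member (adjusted p = 6.98e-05). Nop17l, named for its likeness to a factor of snoRNP assembly, went the other way. It read 10.20, 10.30, 10.65 and 10.88 in wild type, 9.51, 9.90, 9.73 and 9.45 in RafGOF, 9.85, 9.59, 9.70 and 9.11 in RafGOF NotchDN and 9.34, 9.17, 9.17 and 9.60 in RafGOF NotchIC. All 12 arrays with active Raf lay below all wild-type arrays. It fell by 0.86 in RafGOF (adjusted p = 0.00236), 1.82-fold, and the Notch constructs were not told apart for it (0.24, 95% interval -0.14 to 0.62, adjusted p = 0.521). The probe set of Nop17l carries the suffix that Affymetrix gives to probes shared by several transcripts, as do those of pit and Ns1, so other transcripts could add to these signals.

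**Figure D2:**
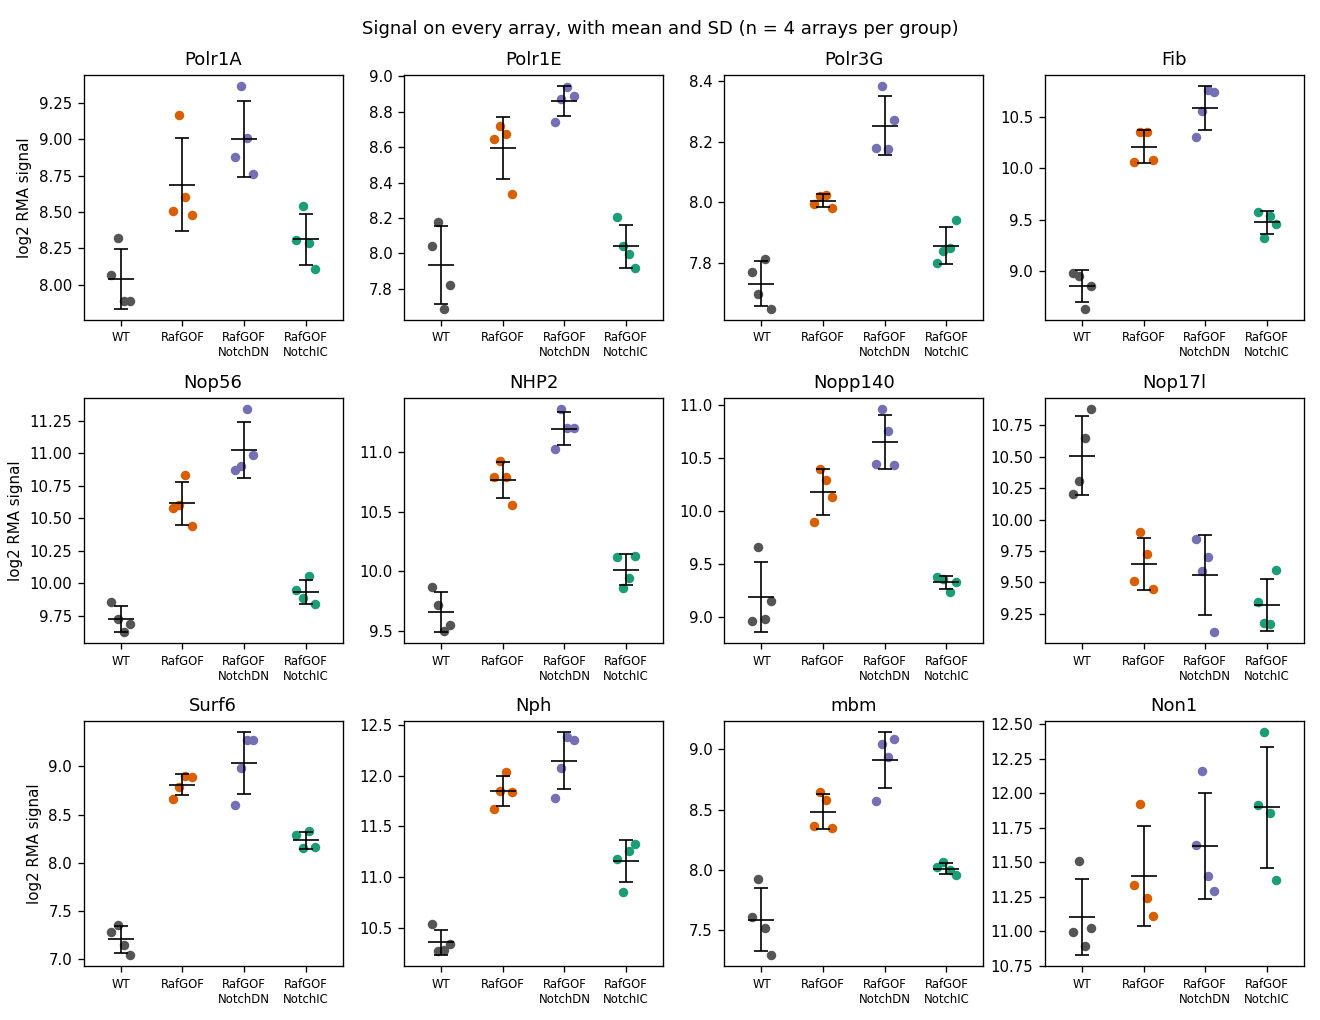
log2 RMA signal of 12 members on every array (points), with the mean and SD of each group of 4 arrays (black bars). For Nop56, NHP2 and Nopp140 the NotchIC arrays lie near wild type, Surf6 and Nph keep a gap above it, Nop17l is low in all Raf groups, and Non1 has its highest group mean in NotchIC.

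Polymerase I itself is built around Polr1A and Polr1B, its largest and the second largest subunit. Polr1A read 8.07, 8.32, 7.88 and 7.89 in wild type, 8.51, 9.17, 8.60 and 8.48 in RafGOF, 8.88, 9.37, 9.01 and 8.76 in RafGOF NotchDN and 8.30, 8.54, 8.29 and 8.11 in RafGOF NotchIC. RafGOF and wild-type arrays did not overlap, and the array numbered 2 was the highest of its group in all 4 groups. Polr1A rose by 0.65 ± 0.165 in RafGOF (adjusted p = 0.0104) and was 0.69 higher with NotchDN than with NotchIC (adjusted p = 0.0149), a call lost without NotchDN replicate 2 (adjusted p = 0.0507). Polr1B read 7.22, 7.35, 6.84 and 6.74 in wild type, 7.43, 8.11, 7.55 and 7.27 in RafGOF, 7.67, 8.69, 8.08 and 7.79 in RafGOF NotchDN and 7.48, 7.38, 7.08 and 7.22 in RafGOF NotchIC. The RafGOF and wild-type arrays overlapped, through 1 RafGOF array below the highest wild-type array. Polr1B was at 0.55 ± 0.22 in RafGOF and did not pass (adjusted p = 0.0994), while it did with the replicate block (adjusted p = 0.0109). It was 0.77 higher with NotchDN than with NotchIC (adjusted p = 0.041). That call was lost in 6 of the 8 fits that left out 1 array, namely NotchDN replicates 2 and 3 and each NotchIC array (adjusted p up to 0.124).

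Polr1C is shared by polymerases I and III. It read 8.42, 8.23, 8.22 and 7.89 in wild type, 8.91, 8.94, 8.86 and 8.71 in RafGOF, 9.17, 8.99, 9.28 and 9.37 in RafGOF NotchDN and 8.56, 8.28, 8.46 and 8.45 in RafGOF NotchIC. Every RafGOF array exceeded every wild-type and NotchIC array, and every NotchDN array exceeded every RafGOF array. Its change was 0.67 ± 0.114 in RafGOF (adjusted p = 0.000548) and 0.76 between the constructs (adjusted p = 0.000479). Polr1E read 8.04, 8.18, 7.69 and 7.82 in wild type, 8.65, 8.72, 8.67 and 8.34 in RafGOF, 8.74, 8.87, 8.94 and 8.89 in RafGOF NotchDN and 8.21, 8.04, 8.0 and 7.92 in RafGOF NotchIC. The NotchIC arrays overlapped with wild type and not with RafGOF. Polr1E changed by 0.66 ± 0.115 in RafGOF (adjusted p = 0.000647) and, with 0.82 between the constructs (adjusted p = 0.000284), had the largest Notch difference among the polymerase genes.

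Polr1F read 7.44, 7.06, 7.35 and 7.23 in wild type, 8.09, 7.76, 8.18 and 8.04 in RafGOF, 8.08, 7.78, 8.21 and 8.46 in RafGOF NotchDN and 7.74, 7.25, 7.75 and 7.73 in RafGOF NotchIC. The array numbered 2 lay below the mean of the other 3 arrays in all 4 groups, and RafGOF cleared wild type. Polr1F rose by 0.75 ± 0.152 in RafGOF (adjusted p = 0.00221). Its difference of 0.51 between the constructs passed narrowly (adjusted p = 0.0467) and was lost in 7 of the 8 fits without 1 array, all but that without NotchDN replicate 2 (adjusted p up to 0.141). Polr1H, a small subunit, read 6.85, 6.27, 6.48 and 6.43 in wild type, 6.87, 6.32, 6.80 and 6.70 in RafGOF, 7.13, 6.89, 7.0 and 6.92 in RafGOF NotchDN and 6.65, 6.62, 6.44 and 6.56 in RafGOF NotchIC. Its RafGOF and wild-type arrays overlapped, while all NotchDN arrays lay above all NotchIC arrays. It was at 0.16 in RafGOF (adjusted p = 0.485) and at 0.42 between the constructs (adjusted p = 0.0614, 0.0087 with the replicate block). Without the arrays numbered 2 the adjusted p of the latter was 0.0367.

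Tif-IA is the initiation factor that lets polymerase I start, a known target of growth and ERK signalling in mammals. It read 8.58, 9.42, 8.63 and 8.54 in wild type, 8.70, 9.70, 8.83 and 8.73 in RafGOF, 8.70, 9.96, 8.97 and 8.71 in RafGOF NotchDN and 8.58, 9.43, 8.67 and 8.42 in RafGOF NotchIC. The array numbered 2 was the highest of its group in all 4 groups, by 0.83 to 1.17 over the mean of the other 3, and the groups overlapped throughout. Tif-IA was at 0.20 ± 0.312 in RafGOF and did not pass (95% interval -0.46 to 0.86, adjusted p = 0.749, 0.0774 with the replicate block). Its estimate ran from -0.04 to 0.41 when single arrays were left out, the lowest without RafGOF replicate 2. Between same-numbered arrays it was higher in RafGOF than in wild type in 4 of 4 cases, by 0.13 to 0.28. With NotchDN over NotchIC it was at 0.31 (adjusted p = 0.671), 0.12 to 0.53 between same-numbered arrays, and it passed with the block (adjusted p = 0.0145).

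Polymerase III has its own largest subunits, Polr3A and Polr3B. Polr3A read 7.73, 8.20, 8.02 and 7.82 in wild type, 7.83, 8.02, 7.75 and 7.62 in RafGOF, 7.53, 7.85, 7.77 and 7.72 in RafGOF NotchDN and 7.96, 7.89, 7.92 and 7.62 in RafGOF NotchIC. It was the only polymerase gene with a negative estimate in RafGOF, its groups overlapped, and it did not pass (-0.14, 95% interval -0.39 to 0.12, adjusted p = 0.522). In RafGOF NotchDN against wild type Polr3A was called lower under quantile normalization (-0.31, adjusted p = 0.0219) and not on the values as deposited. Polr3B read 7.11, 7.48, 7.18 and 7.23 in wild type, 7.41, 7.83, 7.50 and 7.48 in RafGOF, 7.65, 8.25, 7.70 and 7.76 in RafGOF NotchDN and 7.35, 7.54, 7.29 and 7.20 in RafGOF NotchIC. The NotchDN arrays all lay above the NotchIC arrays, whereas RafGOF and wild type overlapped. Polr3B was at 0.30 in RafGOF (adjusted p = 0.152, 0.0071 with the block and 0.0283 without the arrays numbered 2). It was 0.50 higher with NotchDN than with NotchIC (adjusted p = 0.0345). That call was lost without any of NotchDN replicates 2, 3 and 4 or NotchIC replicates 1, 3 and 4 (adjusted p up to 0.098).

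Polr3C, Polr3F and Polr3G form, in yeast and humans, the part of the enzyme that helps it to initiate. Polr3C read 6.59, 6.89, 6.57 and 6.57 in wild type, 6.82, 7.38, 6.86 and 6.68 in RafGOF, 6.60, 7.38, 7.14 and 6.81 in RafGOF NotchDN and 6.94, 6.93, 6.83 and 6.38 in RafGOF NotchIC. Its groups overlapped, and it did not pass in RafGOF (0.28, adjusted p = 0.362) or between the constructs (0.21, adjusted p = 0.601). Polr3F read 6.89, 6.87, 6.77 and 6.64 in wild type, 7.18, 7.01, 7.07 and 7.06 in RafGOF, 7.36, 7.22, 7.14 and 7.36 in RafGOF NotchDN and 7.17, 6.92, 6.92 and 6.92 in RafGOF NotchIC. RafGOF cleared wild type, with 6.89 on the highest wild-type array and 7.01 on the lowest RafGOF array, and the NotchIC arrays reached into the RafGOF range. It rose by 0.29 ± 0.0889 in RafGOF (adjusted p = 0.0329), a call lost without any of RafGOF replicates 1, 3 and 4 or WT replicates 3 and 4 (adjusted p up to 0.113). Between the constructs it was at 0.29 (adjusted p = 0.055, 0.0155 with the block). Polr3G read 7.77, 7.70, 7.81 and 7.65 in wild type, 7.99, 8.02, 8.02 and 7.98 in RafGOF, 8.18, 8.38, 8.18 and 8.27 in RafGOF NotchDN and 7.80, 7.84, 7.85 and 7.94 in RafGOF NotchIC. The spread within groups was small, and wild type, RafGOF and NotchDN did not overlap with one another. It changed by 0.27 ± 0.0727 in RafGOF (adjusted p = 0.0135, 0.0501 without the arrays numbered 2) and by 0.40 between the constructs (adjusted p = 0.00256).

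Polr3D and Polr3E form, in yeast and humans, the pair that acts in termination and restart. Polr3D read 7.19, 7.50, 7.33 and 7.12 in wild type, 7.50, 8.02, 7.80 and 7.50 in RafGOF, 7.22, 7.74, 7.74 and 7.59 in RafGOF NotchDN and 7.27, 7.41, 7.61 and 6.94 in RafGOF NotchIC. The highest wild-type array reached the lowest RafGOF array, and the Notch groups overlapped with both. Polr3D was at 0.42 in RafGOF (adjusted p = 0.09), passed with the replicate block (adjusted p = 0.00685), and was at 0.27 between the constructs (adjusted p = 0.41). Polr3E read 7.82, 7.99, 7.74 and 7.66 in wild type, 7.99, 8.25, 8.05 and 7.76 in RafGOF, 7.77, 8.11, 8.16 and 7.89 in RafGOF NotchDN and 8.05, 8.02, 8.04 and 7.49 in RafGOF NotchIC. The 4 groups overlapped, and it did not pass in RafGOF (0.21, adjusted p = 0.378) or between the constructs (0.08, adjusted p = 0.821). Polr3I, another subunit, read 7.36, 7.29, 7.42 and 7.26 in wild type, 7.68, 7.60, 7.69 and 7.70 in RafGOF, 7.70, 7.67, 7.70 and 7.79 in RafGOF NotchDN and 7.57, 7.49, 7.50 and 7.60 in RafGOF NotchIC. Every array with active Raf lay above every wild-type array. It rose by 0.34 ± 0.0681 in RafGOF (adjusted p = 0.0022) and was at 0.17 between the constructs (adjusted p = 0.152). Under quantile normalization none of the 3 polymerase III calls in RafGOF passed (adjusted p of 0.175 for Polr3F, 0.276 for Polr3G and 0.109 for Polr3I).

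Among the assembly factors, Surf6 is a nucleolar protein related to a yeast factor of both subunits. It read 7.28, 7.35, 7.15 and 7.04 in wild type, 8.66, 8.79, 8.90 and 8.89 in RafGOF, 8.60, 8.99, 9.27 and 9.28 in RafGOF NotchDN and 8.28, 8.15, 8.33 and 8.17 in RafGOF NotchIC. The NotchIC arrays lay above all wild-type arrays and below all RafGOF arrays. Surf6 rose by 1.61 ± 0.131 in RafGOF (adjusted p = 1.11e-06), the largest rise of any member, and differed by 0.80 between the constructs (adjusted p = 0.00103). Nph, a nucleoplasmin-type histone chaperone, read 10.54, 10.27, 10.28 and 10.34 in wild type, 11.68, 11.85, 12.03 and 11.84 in RafGOF, 11.78, 12.08, 12.38 and 12.35 in RafGOF NotchDN and 11.18, 10.86, 11.26 and 11.33 in RafGOF NotchIC. It showed the same order of groups without overlap between NotchIC and wild type or RafGOF. Nph rose by 1.49 ± 0.137 in RafGOF (adjusted p = 3.44e-06) and differed by 0.99 between the constructs (adjusted p = 0.000257).

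Nnp-1, a nucleolar protein of rRNA processing, read 8.02, 8.25, 7.79 and 8.07 in wild type, 8.33, 9.39, 9.05 and 8.81 in RafGOF, 8.84, 9.84, 9.59 and 9.36 in RafGOF NotchDN and 8.13, 8.18, 8.25 and 8.34 in RafGOF NotchIC. RafGOF cleared wild type, and the NotchIC arrays ran from the wild-type range up to the lowest RafGOF array. It rose by 0.86 ± 0.213 in RafGOF (adjusted p = 0.0083) and was 1.18 higher with NotchDN than with NotchIC (adjusted p = 0.00224). The gene mbm, whose product sits in the nucleolus of larval brain neuroblasts, read 7.61, 7.92, 7.51 and 7.29 in wild type, 8.37, 8.64, 8.58 and 8.35 in RafGOF, 8.58, 9.04, 8.93 and 9.09 in RafGOF NotchDN and 8.02, 8.07, 8.0 and 7.95 in RafGOF NotchIC. All Raf arrays exceeded all wild-type arrays. It rose by 0.90 ± 0.133 in RafGOF (adjusted p = 0.000171) and differed by 0.90 between the constructs (adjusted p = 0.000467). Bystin, encoded by bys and needed for the small subunit, read 8.09, 8.19, 8.04 and 7.94 in wild type, 8.63, 8.61, 8.66 and 8.45 in RafGOF, 8.68, 8.82, 8.96 and 8.91 in RafGOF NotchDN and 8.43, 8.22, 8.44 and 8.07 in RafGOF NotchIC. RafGOF lay above wild type on all arrays, and NotchIC overlapped with wild type and stayed below RafGOF. Its change was 0.52 ± 0.099 in RafGOF (adjusted p = 0.00131) and 0.56 between the constructs (adjusted p = 0.00206).

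The DEAD-box helicase gene pit, a Myc target in flies, read 8.13, 8.52, 7.95 and 8.09 in wild type, 8.34, 8.86, 8.56 and 8.38 in RafGOF, 8.46, 9.22, 9.04 and 8.94 in RafGOF NotchDN and 8.05, 8.23, 8.05 and 7.96 in RafGOF NotchIC. The RafGOF and wild-type arrays overlapped, and the NotchIC arrays lay at the wild-type level. It was at 0.36 in RafGOF (adjusted p = 0.148, 0.0214 with the replicate block) and 0.84 ± 0.162 higher with NotchDN than with NotchIC (adjusted p = 0.00369). Between the constructs pit, Polr1B and Polr3B thus passed without passing in RafGOF against wild type. Whether the changes differ between these comparisons was not tested.

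The 3 nucleostemin-family GTPases act at different steps of the large subunit. Ns1, nucleostemin itself, ranged from 7.52 to 8.64 in wild type, 7.72 to 8.85 in RafGOF, 7.71 to 9.41 in RafGOF NotchDN and 7.65 to 8.58 in RafGOF NotchIC. The top of each range was the array numbered 2, which exceeded the mean of the other 3 by 0.83 to 1.22. Ns1 did not pass in RafGOF (0.34, 95% interval -0.40 to 1.07, adjusted p = 0.6), and between the constructs it passed only with the replicate block (0.54, adjusted p = 0.442 without and 0.0123 with it). Ns3, related to a GTPase that releases export factors in the cytoplasm, had the same shape, with 0.57 to 0.80 on the array numbered 2. It was at 0.41 in RafGOF (adjusted p = 0.285, 0.00288 with the block), with differences of 0.32 to 0.54 between same-numbered arrays. Ns2 stayed between 6.08 and 6.78 on all 16 arrays, near 0.06 in RafGOF (95% interval -0.20 to 0.31) and 0.04 between the constructs (95% interval -0.22 to 0.29).

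Non1, whose yeast relative is a GTPase that travels with the early large subunit, had another order of groups. Its means were 11.10 ± 0.28 (SD, n = 4) in wild type, 11.40 ± 0.36 in RafGOF, 11.62 ± 0.39 in RafGOF NotchDN and 11.90 ± 0.44 in RafGOF NotchIC. Within each of the 4 replicate numbers the order was the same, wild type lowest, then RafGOF, NotchDN and NotchIC. Non1 did not pass in RafGOF (0.30, adjusted p = 0.477, 0.0276 with the replicate block), and it was at -0.28 with NotchDN against NotchIC (adjusted p = 0.597, 0.0533 with the block). Against wild type it rose in RafGOF NotchIC by 0.79 ± 0.238 (adjusted p = 0.0385). The gene nclb, a WD40 protein of the nucleolus known from the germline, stayed between 6.63 and 7.28. All its NotchIC arrays lay below all wild-type and NotchDN arrays. Its estimate was -0.02 in RafGOF (95% interval -0.23 to 0.20) and 0.33 with NotchDN against NotchIC (adjusted p = 0.0547, 0.0247 with the replicate block).

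**Figure D3:**
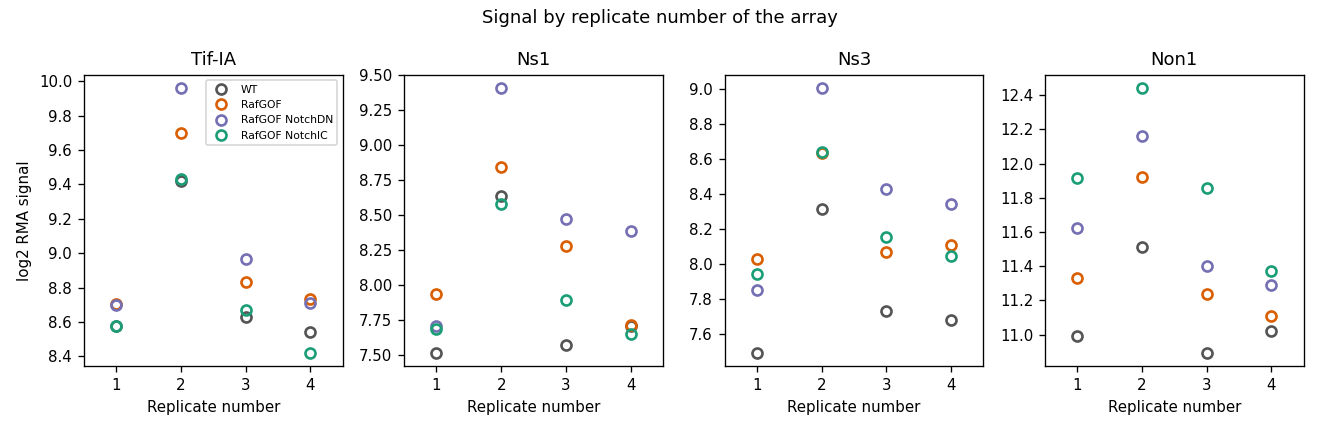
log2 RMA signal of Tif-IA, Ns1, Ns3 and Non1 (y axis) by the replicate number in the titles of the arrays (x axis), 1 point per array, coloured by group. All 4 genes are highest at number 2 in every group, and for Non1 the 4 groups keep 1 order at each number.

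RafGOF against wild type and NotchDN against NotchIC share no array, so their calls can be set side by side. Of the 18 members that rose in RafGOF, 16 were also higher with NotchDN than with NotchIC (88.9%), and these 16 are 84.2% of the 19. Among all genes the share was 30.9% of the 1787 that rose in RafGOF and 75.8% of the 730 higher with NotchDN. Polr3F and Polr3I passed in RafGOF and not between the constructs. Across the 33 members the changes correlated at 0.75 (Pearson) and 0.83 (Spearman), and across all 11982 genes at 0.36 and 0.30. Genes are not independent replicates, both comparisons use 1 common estimate of the spread, and same-numbered arrays deviate together, so these values are a description.

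**Figure D4:**
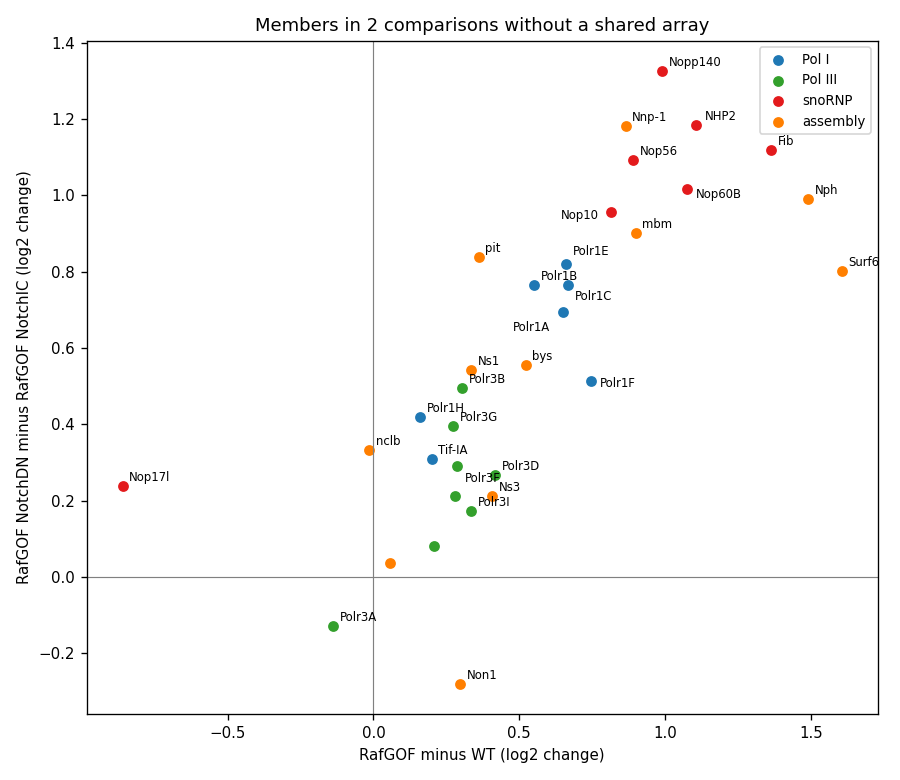
Change in RafGOF against wild type (x axis, log2) and change of NotchDN against NotchIC (y axis, log2) for the 33 members, 1 point each, coloured by role (Polr3C, Polr3E and Ns2 unlabelled). Most members run from low left to high right, with Nop17l and Non1 away from the others.

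**Figure D5:**
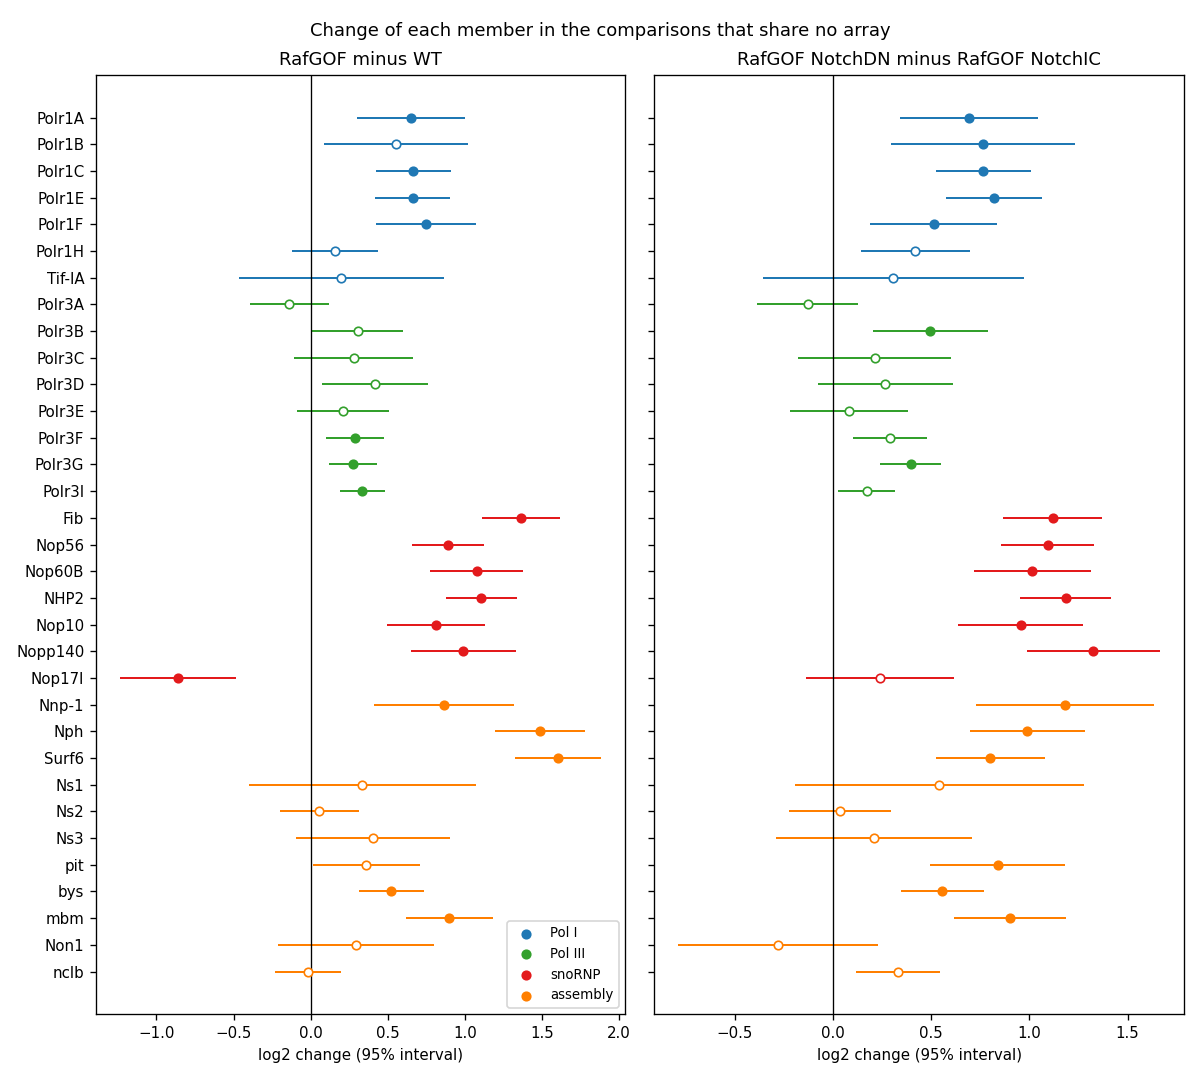
log2 change (points) and 95% interval (lines) of each member in RafGOF against wild type (left) and NotchDN against NotchIC (right), with filled points for members called at an adjusted p under 0.05 and open points for the others. On the left 19 points are filled, with Nop17l alone below 0, and on the right 19 are filled, all above 0.

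A further comparison, of RafGOF NotchDN with RafGOF, addresses what a blocked Notch receptor adds. By limma 0 members were called higher and 0 lower, against 0.818% and 0.551% of all genes, and 16 had an unadjusted p under 0.05. The estimates were positive for 29 of 33 members, with a median of 0.27, while 49.7% of all genes had a positive estimate. The 4 NotchDN arrays all lay above the 4 RafGOF arrays for 9 members and below for 0, against 2.42% and 2.47% of all genes. These were Polr1C, Polr1E, Polr1H, Polr3G, Nop56, NHP2, Nop10, Nopp140 and bys. In all 4 replicate numbers NotchDN was the higher for 22 members and the lower for 0, against 14.6% and 18.4% of all genes. Without the arrays numbered 2 limma again called 0 members in either direction (0.609% of all genes higher, 0.2% lower). With the replicate block 4 members passed, all higher (2.14% of all genes, with 3.2% lower). They were Nopp140 (0.47 ± 0.159, adjusted p = 0.266 without and 0.0366 with the block), NHP2 (0.43, 0.0836 and 0.0404), Nop56 (0.41, 0.115 and 0.0292) and Polr1A (0.32, 0.674 and 0.0452). Under quantile normalization, where the share of all genes was not counted, 4 members passed, Fib (adjusted p = 0.042), Nop56 (0.0408), NHP2 (0.0371) and mbm (0.0257). On the values as deposited Fib was at 0.38 ± 0.118 (adjusted p = 0.214) and Nnp-1, with the largest estimate, at 0.51 ± 0.213 (adjusted p = 0.464).

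With NotchIC added to RafGOF, 8 members fell and 0 rose, against 1.61% and 1.4% of all genes. The median was -0.33 over the members and -0.01 over all genes, and 30 of 33 estimates were negative. The 8 held 5 snoRNP proteins, namely Nopp140 (-0.85 ± 0.159, adjusted p = 0.00968), NHP2 (-0.75 ± 0.109, adjusted p = 0.0018), Fib (-0.74 ± 0.118, adjusted p = 0.00362), Nop56 (-0.68 ± 0.111, adjusted p = 0.00412) and Nop60B (-0.68 ± 0.141, adjusted p = 0.0188). The other members were Nph (-0.69, adjusted p = 0.014), Surf6 (-0.58, adjusted p = 0.0295) and Polr1E (-0.55, adjusted p = 0.0192). On the dimmer probe set of Nop60B the fall was -1.61 (adjusted p = 0.00083). The 4 NotchIC arrays all lay below the 4 RafGOF arrays for 16 members and above for 0, against 4.92% and 3.26% of all genes. NotchIC was the lower in all 4 replicate numbers for 23 members and the higher for 1, against 15.6% and 11.8% of all genes.

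This count moved with the arrays used. It was 5 without RafGOF replicate 2, 4 without RafGOF replicate 3 and 4 without NotchIC replicate 2, and 2 (Nopp140 and NHP2) without all arrays numbered 2, where 0.367% of all genes were called lower and 0.342% higher. Without them, on 12 arrays, the change was -0.64 (adjusted p = 0.0768) for Fib, -0.67 (0.06) for Nop56 and -0.51 (0.122) for Polr1E. It was -0.59 (0.141) for Nph, -0.62 (0.187) for Nop60B and -0.56 (0.194) for Surf6. Each of these changes was smaller in size than over all arrays, and why the calls were lost was not tested. With the replicate block 16 members fell, against 4.55% of all genes, and Non1 rose (0.50, adjusted p = 0.443 without and 0.00746 with the block, against 4.11% of all genes called higher). Without single arrays the call was lost for Surf6 (7 of 8 fits, all but that without RafGOF replicate 1, adjusted p up to 0.103), for Polr1E (RafGOF or NotchIC replicates 2 or 3, up to 0.0734), for Nop60B (RafGOF replicates 2 or 3 or NotchIC replicate 2, up to 0.077) and for Nph (RafGOF replicate 3 or NotchIC replicate 2, up to 0.0606). The calls of Fib, Nop56, NHP2 and Nopp140 passed in all 8 such fits. The 8 that passed with the block besides the first 8 were Polr1A, Polr1C, Polr1F, Polr3D, Nop10, Nnp-1, pit and mbm (adjusted p of 0.00575 for Nop10 to 0.0358 for Polr3D with the block, 0.0538 to 0.372 without it).

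Each Notch group was last set against wild type. The 2 comparisons share the wild-type arrays with each other and with that of RafGOF, so their values stand side by side only. In RafGOF NotchDN 22 members rose and 1 fell, against 14.6% and 12.1% of all genes, with a median of 0.74 against -0.02 over all genes. Of the 22, 12 rose by at least 2-fold, among them Surf6 (3.55-fold), Nph (3.45-fold), Fib (3.35-fold) and NHP2 (2.91-fold). Of the polymerase I genes Polr1B was at 1.02 ± 0.22 (adjusted p = 0.00298) and Polr1C at 1.01 ± 0.114 (adjusted p = 9.42e-06). Polr1H passed here (0.47, adjusted p = 0.0158), a call lost without WT replicate 2 (adjusted p = 0.0557), and pit did too (0.74, adjusted p = 0.00336), although its NotchDN and wild-type arrays overlapped. Tif-IA (0.29, adjusted p = 0.646), Ns1 (0.63, 0.259), Ns3 (0.60, 0.0885) and Non1 (0.51, 0.165) did not pass, and all 4 passed with the replicate block (adjusted p of 0.0119, 0.00232, 0.000115 and 0.00068). Without the arrays numbered 2 Ns3 (0.57, adjusted p = 0.0117) and Non1 (0.47, adjusted p = 0.0363) passed as well. With that block 26 members rose and 1 fell (20.5% and 17.4% of all genes), and without the arrays numbered 2 the counts were 24 and 1 (15.1% and 11.3%). Under quantile normalization, where the share of all genes was not counted, 21 rose and 2 fell. There Polr1H lost its call (adjusted p = 0.051) and Polr3A was called lower. Nop17l fell by 0.95 (adjusted p = 0.000919).

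In RafGOF NotchIC 6 members rose and 1 fell against wild type, with 9.98% and 6.77% of all genes called. The median change was 0.19 over the members and -0.00056 over all genes. Over genes at or above the median signal, as all members are, it was 0.09. Estimates were positive for 60.1% of those genes and for 28 of the 33 members. The share of those genes that was called is not given here. Surf6 (1.03 ± 0.131, adjusted p = 0.000129), Nph (0.80 ± 0.137, adjusted p = 0.00139) and Fib (0.62 ± 0.118, adjusted p = 0.00263) rose with all NotchIC arrays above all wild-type arrays. Non1 (0.79, adjusted p = 0.0385), NHP2 (0.36, adjusted p = 0.0435) and mbm (0.43, adjusted p = 0.0478) also passed, with arrays that overlapped with wild type for Non1 and NHP2. Nop17l fell by 1.19, 2.28-fold (adjusted p = 0.000482). Of the polymerase genes 0 of 15 passed by limma, with 3 at an unadjusted p under 0.05 (Polr1C, Polr1F and Polr3I). Polr1F passed without the arrays numbered 2 (0.40, adjusted p = 0.0257), and Polr3I passed with arrays centred on their median (0.26, adjusted p = 0.0181). In the fit of the mean of all probe sets of a gene Polr3I passed too (0.21, adjusted p = 0.0495). It has 1 probe set, so its values there were unchanged and only the set of features fitted differed. Without the arrays numbered 2 the counts were 7 higher and 1 lower, against 12.7% and 6.92% of all genes. Nopp140 (0.14, 95% interval -0.20 to 0.48) and Nop56 (0.21, 95% interval -0.03 to 0.45) were not told apart from wild type. The count of 7 was 4 without WT replicate 3, WT replicate 4, NotchIC replicate 1 or NotchIC replicate 3. The calls of NHP2, mbm and Non1 were each lost in 6 or 7 of the 8 fits without 1 array (adjusted p up to 0.13, 0.157 and 0.105). NHP2 kept its call without WT replicate 1 or NotchIC replicate 2, mbm without WT replicate 2, and Non1 without WT replicate 2 or NotchIC replicate 4. On the 8 arrays compared, under quantile normalization and with an intensity trend NHP2 was not called (adjusted p of 0.0717, 0.0912 and 0.0812). The same settings and median centring lost the call of mbm (adjusted p of 0.061 to 0.0934). Under quantile normalization 4 members rose and 2 fell, with nclb called lower (-0.35, adjusted p = 0.0369). The median over the members was then 0.08, and the share of all genes was not counted.

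Other ribosome biogenesis genes were read from a list of 75 further symbols, of which 42 were measured as single symbols. Myc, the growth transcription factor on that list, was not the single symbol of any probe set and is not analysed here. In RafGOF against wild type 20 of the 42 rose and 0 fell, with a median of 0.48. With the replicate block 34 rose, and 27 without the arrays numbered 2. Of all genes 14.9% were called higher and 10.1% lower, with 22.5% higher with the block and 14.9% without those arrays. Ski6 (1.04) and Csl4 (0.87), subunits of the RNA exosome, and ppan (1.01) and Non3 (0.85), factors of the large subunit, rose most among those called. Between NotchDN and NotchIC 16 of 42 were higher with NotchDN and 0 lower, with a median of 0.57. The counts were 30 and 1 with the block, and 24 and 0 without the arrays numbered 2. Of all genes 6.09% were higher and 5.47% lower, 10.6% and 13.8% with the block, and 5.16% and 4.95% without those arrays. The 16 were led by Mybbp1A (1.01), a nucleolar protein, and by the exosome subunits Rrp46 (0.99) and Csl4 (0.92), with Non3 at 0.90. With NotchDN added to RafGOF only eIF6, which keeps ribosomal subunits apart, passed (0.42, adjusted p = 0.0452, 1 of 42, and 4 with the block). Without the arrays numbered 2 its adjusted p was 0.116. Of all genes 0.818% were called higher here, and 2.14% with the block. With NotchIC added 7 fell and 0 rose (16 and 0 with the block), and without the arrays numbered 2 none of the 7 passed (adjusted p of 0.0577 for Rrp46 to 0.187 for eIF6 and Rrp40). The falls were led by Mybbp1A (-0.66), Csl4 (-0.65), Non3 (-0.62) and Rrp46 (-0.59). Of all genes 1.61% were called lower, 4.55% with the block and 0.367% without the arrays numbered 2. Against wild type 31 rose and 0 fell in RafGOF NotchDN (median 0.68, 35 without the arrays numbered 2). Ski6 (1.29), ppan (1.23), Csl4 (1.13) and Non3 (1.13) led them. Of all genes 14.6% were called higher, and 15.1% without those arrays. In RafGOF NotchIC 3 rose and 0 fell (median 0.21, 6 without the arrays numbered 2). The 3 were the helicase Dbp45A (0.60), Ski6 (0.52) and the exosome subunit Rrp4 (0.30). This count of 3 of 42 did not exceed the share of all genes called higher, 9.98%. Without the arrays numbered 2 that share was 12.7%.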

How the data were processed

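Per the labels, biotin-labelled total RNA (GeneChip 3' IVT Express chemistry) of 16 samples, 4 per group, was measured on 1 array each. The authors deposited RMA signals on the log2 scale for 18952 probe sets. RMA is named in the submitters' processing notes, with no version and no software stated in the sources used here. Setting aside 183 control probe sets left 18769, of which 13647 had 1 gene symbol, 402 several and 4720 none.

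The members and all gene lists were chosen with earlier results of these data known, and camera or other set tests were not run. Any member could be named, and of the other biogenesis genes up to 4 called ones per comparison, in order of absolute change. All 33 members matched RefSeq by gene ID. No sequences are printed.

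The test was limma 3.58.1 (R 4.3.3) on all 16 arrays together, a mean per group leaving 12 residual degrees of freedom, with default moderation and Benjamini-Hochberg adjustment over 18769 probe sets within each of 6 comparisons. Every SE, interval and adjusted p in the text is from this fit unless an alternative is named, and rests on the spread over all 16 arrays. Shares of all genes refer to the brightest single-symbol probe set of each of 11982 genes. Shares called among genes at or above the median signal are given only for RafGOF against wild type and NotchDN against NotchIC. The fit was tested on simulated data with independent arrays. That setting lacks the shared deviation of same-numbered arrays, so it cannot show how the fit handles it. Precision is limited by the number of arrays.

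The titles give the groups the same replicate numbers. Over all probe sets, deviations from group means of same-numbered arrays correlated at 0.104 to 0.785 in the 5 comparisons where every pair exceeded 0.1. These were taken as paired by the data, and the value with the replicate number as a block is given where it changes a call. In RafGOF NotchIC against wild type the lowest correlation was 0.0489. Over the members alone some pairs in the 5 comparisons did not exceed 0.1. The value was -0.0097 for number 3 in RafGOF against wild type. In RafGOF NotchDN against wild type it was 0.0044 for number 3 and -0.197 for number 4. The alternatives were this block, leaving out each array, a fit of the 8 arrays compared, median centring, quantile normalization, a filter at the median signal, the mean over probe sets, an intensity trend and, chosen after seeing the data, leaving out the arrays numbered 2.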

Additional observations from a re-analysis of the deposited data

Results flagged for a closer look

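In each group of 4 arrays, the gap between the highest or lowest array and its neighbour was set against the whole range (Dixon's criterion) for every member. Of the 132 groups tested 7 stood out, near the 1 in 20 that chance gives, and 5 of these 7 were arrays numbered 2.

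Tif-IA read 9.42 on WT replicate 2 with 8.54 to 8.63 on the other wild-type arrays, and 9.70 on RafGOF replicate 2 with 8.70 to 8.83 on the others. Ns3 read 8.64 on RafGOF replicate 2, with 8.03 to 8.11 on the others. Polr3C read 6.89 on WT replicate 2, with 6.57 to 6.59 on the others. Polr1F was lowest on RafGOF NotchIC replicate 2, at 7.25 with 7.73 to 7.75 on the others. On arrays with other numbers, Polr3E was lowest on RafGOF NotchIC replicate 4, at 7.49 with 8.02 to 8.05 on the others, and Polr3F was highest on RafGOF NotchIC replicate 1, at 7.17 with 6.92 on the 3 others. What sets the arrays numbered 2 apart was not tested.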

How the results depend on the processing

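The 198 changes of members (33 in 6 comparisons) were recomputed in 3168 alternatives. Of these 3004 kept their side of the threshold, 96 lost the call, 68 gained it, and no called change reversed its sign. With the replicate block 32 results gained a call and 0 lost it, under quantile normalization 11 gained and 7 lost it, and without the arrays numbered 2, chosen after seeing the data, 5 gained and 7 lost it. The replicate block moved the count of members called from 0 to 4 for RafGOF NotchDN against RafGOF, from 8 to 17 for RafGOF NotchIC against RafGOF, and from 7 to 11 for RafGOF NotchIC against wild type, where the numbers were not taken as pairs (Polr1A, Polr1F, Polr3I and Ns3 added), and it moved no other count by over 1.5 times. Quantile normalization moved the count for RafGOF NotchDN against RafGOF to 4 (Fib, Nop56, NHP2 and mbm). Leaving out the arrays numbered 2 moved that for RafGOF NotchIC against RafGOF to 2. Without single arrays the count ran from 4 to 9 for RafGOF NotchIC against RafGOF and from 4 to 6 for RafGOF NotchIC against wild type. The causes of these moves were not tested. For quantile normalization, and for the block in RafGOF NotchIC against wild type, shares of all genes are not given here. The counts for RafGOF against wild type, NotchDN against NotchIC and RafGOF NotchDN against wild type stayed within 1.5 times under every alternative run.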
